A study of Mus musculus with 8 samples.

Results

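The haemoglobin and red blood cell genes described here are the adult alpha-globin genes Hba-a1 and Hba-a2, the adult beta-globin genes Hbb-bs and Hbb-bt, and Alas2, the red cell enzyme of haem synthesis. They were taken by name as 5 of the 22000 gene rows of a count table, in all 8 libraries, as a readout of blood left in the tissue. Messenger RNA was sequenced from the whole cortex of 4 mice labelled Mef2c heterozygous (2 males and 2 females) and 4 labelled Mef2c wild type (2 males and 2 females), with 1 library per mouse. Mef2c encodes a transcription factor of neurons and microglia. The age and strain of the mice, the construction of the Mef2c allele and any perfusion of the animals are details not given in the sources used here.

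Haemoglobin carries oxygen in red blood cells as a complex of alpha-globin and beta-globin chains, each holding a haem group. Maturing red cells fill with globin messenger RNA, and the young red cells that enter the blood still carry it, so globin transcripts travel with blood into any tissue that is collected with its vessels. Alas2 makes the starting step of haem synthesis in red cell precursors, where other cells use Alas1. Globin transcripts have also been described at low levels in brain cells, and a whole-cortex library cannot separate these sources.

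Per the GENCODE annotation of mouse build GRCm38, all 5 genes are protein-coding. Hba-a1 (ENSMUSG00000069919.7) lies at chr11:32283511-32284465 on the plus strand, and Hba-a2 (ENSMUSG00000069917.7) lies downstream of it at chr11:32296489-32297298 on the same strand. Hbb-bs (ENSMUSG00000052305.6) lies at chr7:103826534-103828096 and Hbb-bt (ENSMUSG00000073940.3) at chr7:103812524-103813996, both on the minus strand. Each globin gene has 3 exons. Alas2 (ENSMUSG00000025270.13) has 11 exons and lies at chrX:150547375-150570638 on the plus strand.

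Each globin pair is a pair of near-identical copies, and the sequences below show the single base by which their coding sequences differ, in capitals. They are given because they bear on how far the reads of the copies can be kept apart. The windows were read from the build GRCm38 reference, 5′ to 3′ in the sense of the gene, at chr11:32284319-32284367 for Hba-a1, chr11:32297136-32297184 for Hba-a2, chr7:103826668-103826716 for Hbb-bs and chr7:103812659-103812707 for Hbb-bt.
Hba-a1: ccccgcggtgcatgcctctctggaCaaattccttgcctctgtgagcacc
Hba-a2: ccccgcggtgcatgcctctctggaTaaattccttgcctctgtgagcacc
Hbb-bs: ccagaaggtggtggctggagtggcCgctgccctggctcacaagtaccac
Hbb-bt: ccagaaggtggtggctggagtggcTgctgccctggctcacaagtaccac
Counting from 1 at the first base of the start codon, the alpha-globin change is C381T, with the Hba-a1 base given before the position, and the beta-globin change is C417T, with the Hbb-bs base given before it. Hba-a1 and Hba-a2 were identical at 99.8% of 426 coding bases, and their annotated transcripts shared a run of 415 bases. Hbb-bs and Hbb-bt were identical at 99.8% of 441 coding bases and shared a run of 430 bases. Of all 50-base windows, 67.5% of those in the Hba-a1 transcript also occurred in Hba-a2, and 65.8% of those in the Hbb-bs transcript also occurred in Hbb-bt. Read the other way, 86.9% of the 50-base windows of Hba-a2 and 58.3% of those of Hbb-bt had an exact match in their partner. Within the coding sequence, the copies can be told apart by reads over that 1 base alone, and otherwise by reads of the untranslated ends. How the counting treated reads that match both copies, and whether it used strand, is not given in the sources used here, so the value of each single globin copy is uncertain. None of the 4 pairs of an alpha-globin with a beta-globin transcript shared a 50-base window, the longest shared run being 14 bases.

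The sequences before the RefSeq starts of these genes (build GRCm38.p6, 250 bases, 5′ to 3′ in the sense of the gene) are shown as a description. Any part of these sequences in how the genes' levels moved together across libraries, described further on, was not tested. All 5 genes had an entry. Capitals mark 4 short motifs searched on both strands: GATAA, a core of the sites bound by GATA factors, CACCC, a core bound by KLF factors, CCAAT, and the TATA-box core TATAA. A match on the opposite strand is in capitals as its reverse complement, and adjoining or overlapping matches run together.
Hba-a1 (chr11:32283422-32283671, plus strand): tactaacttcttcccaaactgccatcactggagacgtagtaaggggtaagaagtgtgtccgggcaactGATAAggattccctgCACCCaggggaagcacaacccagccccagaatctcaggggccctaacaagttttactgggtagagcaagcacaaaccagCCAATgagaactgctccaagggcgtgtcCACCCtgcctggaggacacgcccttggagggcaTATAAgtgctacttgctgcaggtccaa
Hbb-bs (chr7:103827929-103828178, minus strand): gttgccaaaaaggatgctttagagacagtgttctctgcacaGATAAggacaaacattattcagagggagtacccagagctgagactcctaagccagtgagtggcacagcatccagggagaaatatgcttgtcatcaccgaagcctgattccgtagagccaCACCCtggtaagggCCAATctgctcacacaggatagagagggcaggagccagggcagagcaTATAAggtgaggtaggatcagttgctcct
Hbb-bt (chr7:103813924-103814173, minus strand): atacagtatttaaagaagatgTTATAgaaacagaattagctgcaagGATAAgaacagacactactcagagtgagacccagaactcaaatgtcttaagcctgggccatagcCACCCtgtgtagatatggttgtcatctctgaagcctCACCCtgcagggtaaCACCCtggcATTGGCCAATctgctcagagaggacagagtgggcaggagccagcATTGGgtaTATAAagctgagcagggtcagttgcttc
Alas2 (chrX:150547167-150547416, plus strand): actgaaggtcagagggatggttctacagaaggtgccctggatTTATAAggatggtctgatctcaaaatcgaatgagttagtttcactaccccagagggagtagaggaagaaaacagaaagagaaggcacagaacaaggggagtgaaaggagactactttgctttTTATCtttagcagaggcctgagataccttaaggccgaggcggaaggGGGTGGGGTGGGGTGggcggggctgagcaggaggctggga
All 4 globin windows, that of Hba-a2 included, held each of the 4 motifs, whereas 0.968% of all 32851 RefSeq windows of that length held all 4. The TATAA match on the gene's own strand lay 27 bases before the RefSeq start in Hba-a1, 29 in Hbb-bs and 28 in Hbb-bt. The CCAAT match on the gene's own strand lay 88, 76 and 75 bases before it. The Alas2 window held 3 of the 4 motifs, lacking CCAAT, and its 3 matches to CACCC lay on the opposite strand. Singly these motifs are common: GATAA was in 22.6% of all windows, CACCC in 52%, CCAAT in 33.8% and TATAA in 22.8%. The Hba-a1 and Hba-a2 windows shared a run of 247 of their 250 bases, against a longest shared run of 14 bases between Hbb-bs and Hbb-bt. A match is a run of letters and not a measured binding site. GENCODE places the start of each of these genes further upstream than RefSeq does, so part of each window lies inside the GENCODE gene.

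Total counts lay between 16092773 and 17841377 per library, and RNA integrity numbers between 8.6 and 9. Animal numbers in the sample titles fall into a higher and a lower range, each with 1 mouse of each sex and genotype, and the labels do not say what the ranges stand for. Mef2c, the gene named by the genotype, averaged 1304 ± 73.2 CPM in the heterozygous-labelled libraries and 995 ± 41.3 CPM in the wild type libraries (SD, n = 4 each; CPM is the count scaled to a common library total by the trimmed mean of M-values, TMM). In log2 units the difference was 0.39 ± 0.05 (SE; edgeR, Benjamini-Hochberg adjusted p = 0.000154), which is higher and not lower in the libraries labelled heterozygous. Every genotype direction here follows those labels.

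Hba-a1 had 29.4, 30.5, 27.2 and 12.1 CPM in heterozygous-labelled replicates 1 to 4, against 26.2, 45.9, 30.6 and 28.7 CPM in wild type replicates 1 to 4. A single library stood low, heterozygous-labelled replicate 4, and a single library stood high, wild type replicate 2, while the other 6 lay between 26.2 and 30.6 CPM across both genotypes. The counts behind these values were 217 to 526 reads in the heterozygous-labelled libraries and 451 to 797 reads in the wild type libraries. Hba-a1 averaged 24.8 ± 8.56 CPM in heterozygous-labelled cortex and 32.9 ± 8.87 CPM in wild type cortex (SD, n = 4 each). Its log2 fold change was -0.40 ± 0.30 (SE; adjusted p = 0.930, edgeR). The difference was smaller than the spread between mice of either genotype. In bulk tissue, fewer red cells and less RNA per red cell cannot be told apart.

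Hba-a2, the second alpha-globin copy, showed the same 2 libraries at its extremes. It had 8.71, 9.51, 7.83 and 5.82 CPM in heterozygous-labelled replicates 1 to 4, against 7.91, 12.4, 9.68 and 9.88 CPM in wild type replicates 1 to 4. The genotypes overlapped, since heterozygous-labelled replicates 1 and 2 exceeded the lowest wild type library. The mean was 7.97 ± 1.59 CPM in heterozygous-labelled cortex and 9.96 ± 1.84 CPM in wild type cortex, with a log2 fold change of -0.32 ± 0.16 (SE; adjusted p = 0.711, edgeR).

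Hbb-bs, the more abundant beta-globin gene, had 31.8, 28.0, 18.1 and 15.7 CPM in heterozygous-labelled replicates 1 to 4, against 24.8, 43.2, 26.1 and 27.6 CPM in wild type replicates 1 to 4. Heterozygous-labelled replicates 3 and 4 were lower than every other library, and wild type replicate 2 was again the highest. Hbb-bs averaged 23.4 ± 7.73 CPM in heterozygous-labelled cortex and 30.4 ± 8.61 CPM in wild type cortex, with a log2 fold change of -0.37 ± 0.30 (SE; adjusted p = 0.943, edgeR). The groups overlapped, since heterozygous-labelled replicates 1 and 2 exceeded 3 of the 4 wild type libraries.

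Hbb-bt, the less abundant beta-globin gene, had 2.96, 1.97, 1.74 and 1.23 CPM in heterozygous-labelled replicates 1 to 4, against 2.74, 5.76, 4.35 and 2.61 CPM in wild type replicates 1 to 4. These values rest on 50, 34, 28 and 22 reads in the heterozygous-labelled libraries and on 47, 100, 76 and 43 reads in the wild type libraries. Only heterozygous-labelled replicate 1 reached the wild type range. The mean was 1.98 ± 0.726 CPM in heterozygous-labelled cortex and 3.86 ± 1.49 CPM in wild type cortex. Among the 5 genes Hbb-bt had the smallest unadjusted p, 0.00140, and a log2 fold change of -0.93 ± 0.26 (SE), but its adjusted p of 0.158 (edgeR) did not pass the threshold of 0.05.

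Alas2 had 1.78, 1.45, 2.98 and 0.336 CPM in heterozygous-labelled replicates 1 to 4, against 2.15, 4.26, 2.92 and 2.36 CPM in wild type replicates 1 to 4. Its order among the heterozygous-labelled libraries differed from that of the globins, because replicate 3, low for Hbb-bs, was the highest of the 4 for Alas2. Heterozygous-labelled replicate 4 held 6 Alas2 reads, against 74 in wild type replicate 2, the widest range of the 5 genes (12.7-fold in CPM). Alas2 averaged 1.64 ± 1.09 CPM in heterozygous-labelled cortex and 2.92 ± 0.948 CPM in wild type cortex, with a log2 fold change of -0.91 ± 0.33 (SE; adjusted p = 0.442, edgeR).

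**Figure D1:**
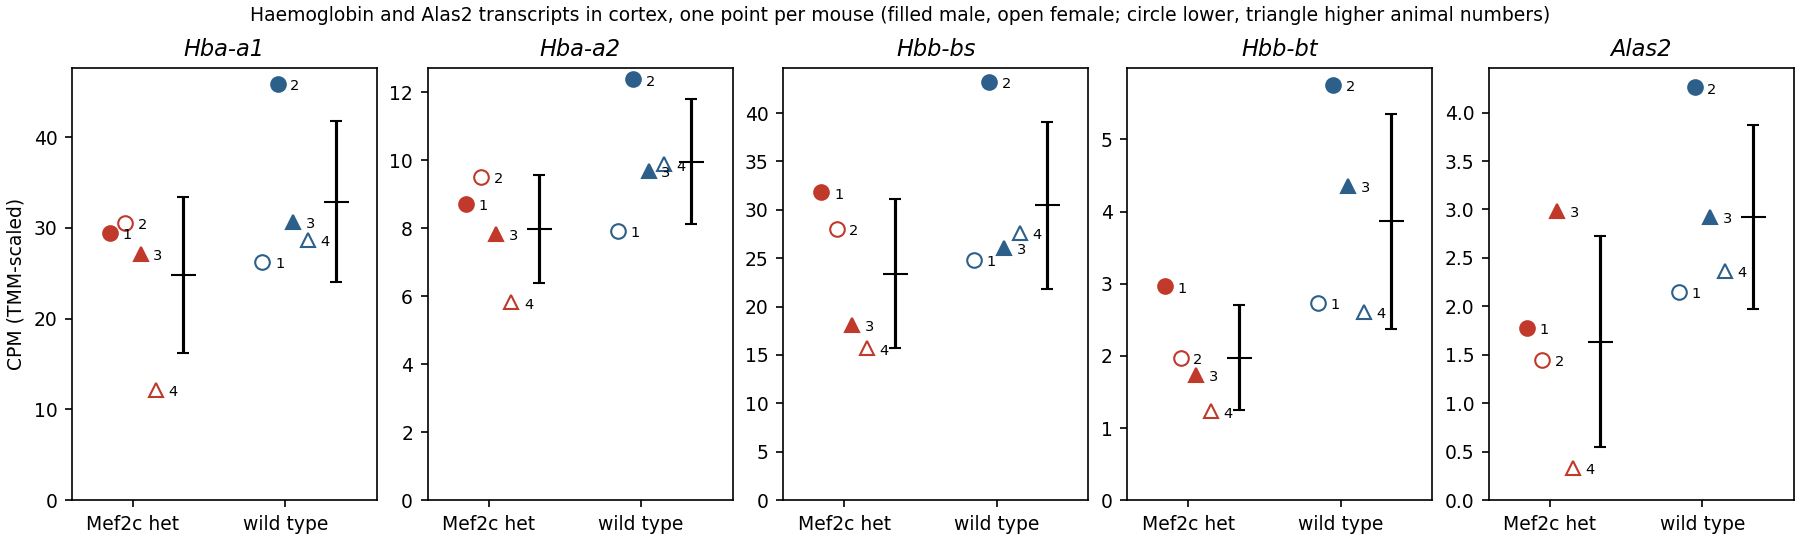
CPM of each gene (vertical axes from 0, a separate scale per gene) in each library, with heterozygous-labelled mice left of wild type mice; numbers are replicates, and black bars are the mean and SD of 4 mice. Heterozygous-labelled replicate 4 is the lowest and wild type replicate 2 the highest library in all 5 panels, and the genotypes overlap in each.

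None of the 5 genes was called between the genotypes, where 37 of 13879 tested genes (0.267%) were called in either direction. All 5 had a negative log2 fold change, with a median of -0.40 against a median of -0.0011 over all tested genes, but the 5 genes share their libraries and their source and are not independent. At an unadjusted p under 0.05, 2 of the 5 (Hbb-bt and Alas2) were lower in heterozygous-labelled cortex, where 3.7% of all tested genes were. For 0 of the 5 did the genotypes not overlap, where 4.55% of tested genes had no overlap. All 5 genes passed the filter on low counts. A p that misses the threshold does not show that the genotypes had equal levels.

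The 2 extreme libraries were left out in turn and together. They were picked as the lowest heterozygous-labelled and the highest wild type library of these same genes, so leaving them out must move a negative difference towards 0, and no other pair was left out for comparison. Without heterozygous-labelled replicate 4 the Hba-a1 log2 fold change was -0.20, without wild type replicate 2 it was -0.26, and without both it was 0.02. Hbb-bs gave -0.24 without heterozygous-labelled replicate 4, -0.18 without wild type replicate 2 and 0.02 without both. The 3 against 3 values of these genes are thus a description of the other 6 libraries. Hba-a2 gave -0.21, -0.22 and -0.06 in the same order. Hbb-bt gave -0.86, -0.80 and -0.68 in that order. Alas2 gave -0.61 without heterozygous-labelled replicate 4, -0.86 without wild type replicate 2 and -0.45 without both. None of the 5 was called in any of these fits. Over all tested genes the fits called 28 without heterozygous-labelled replicate 4, 19 without wild type replicate 2 and 14 without both.

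**Figure D2:**
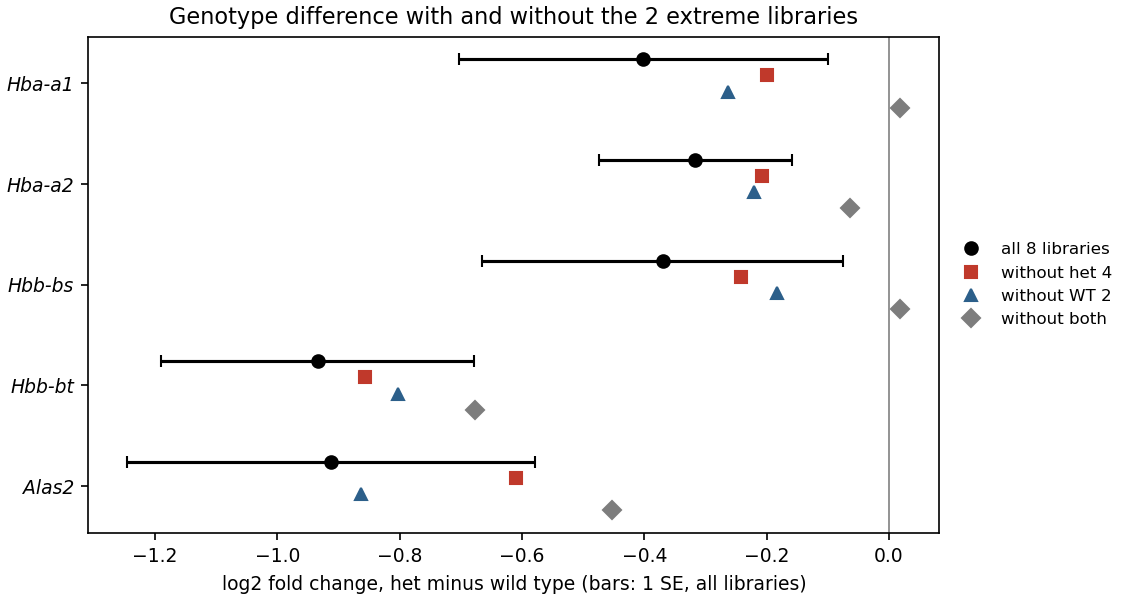
Log2 fold change (heterozygous-labelled minus wild type) of each gene with all 8 libraries (black circles, bars of 1 SE), without heterozygous-labelled replicate 4 (squares), without wild type replicate 2 (triangles) and without both (diamonds). Hba-a1 and Hbb-bs reach 0.02 without both libraries, whereas Hbb-bt stays at -0.68 and Alas2 at -0.45.

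Summed over the 4 globin genes, the level was 72.9, 70.0, 54.9 and 34.9 CPM in heterozygous-labelled replicates 1 to 4, against 61.7, 107, 70.7 and 68.8 CPM in wild type replicates 1 to 4. Heterozygous-labelled replicates 3 and 4 lay under the wild type range, and replicates 1 and 2 inside it. The mean sum was 58.2 ± 17.4 CPM in heterozygous-labelled cortex and 77.1 ± 20.5 CPM in wild type cortex (SD, n = 4 each), a ratio of 0.754. On the log2 scale with 0.5 CPM added, the mean difference was -0.43, about as large as the SD between mice within a genotype (0.484 in heterozygous-labelled and 0.348 in wild type cortex). It was -0.03 with both extreme libraries left out. A sum over chosen genes was given no test.

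The extreme libraries were neither the shallowest nor the lowest in RNA quality. The library with the least globin, heterozygous-labelled replicate 4, had the most reads in all (17841377) and the highest RNA integrity number (9). The library with the most globin, wild type replicate 2, had 17263471 reads and a number of 8.9. All scalings tried (TMM, DESeq2 size factors, upper quartile and plain totals) gave differences of the globin index between -0.42 and -0.43.

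Within the higher range of animal numbers the mean globin sum was 44.9 CPM in heterozygous-labelled and 69.8 CPM in wild type cortex, a log2 difference of -0.67 with 2 mice per genotype. Within the lower range it was 71.5 CPM in heterozygous-labelled and 84.5 CPM in wild type cortex, a log2 difference of -0.19. Both ranges thus had the lower mean in heterozygous-labelled cortex, and each range held 1 of the extreme libraries. Between the ranges, Hbb-bs differed by -0.56 ± 0.14 on the log2 scale, higher animal numbers minus lower (SE; adjusted p = 0.173, edgeR). The other 4 genes had range differences between -0.46 (Hbb-bt) and -0.19 (Alas2), and none was called. Of all 13879 tested genes, 53 were called between the ranges, and 1413 had an unadjusted p under 0.05 (edgeR).

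Sex and the range of animal numbers together form 4 cells, each with 1 heterozygous-labelled and 1 wild type mouse. Hbb-bt was 2.96 CPM in the heterozygous-labelled against 5.76 CPM in the wild type male of the lower range, and 1.74 CPM in the heterozygous-labelled against 4.35 CPM in the wild type male of the higher range. In females it was 1.97 CPM in the heterozygous-labelled against 2.74 CPM in the wild type mouse of the lower range, and 1.23 CPM in the heterozygous-labelled against 2.61 CPM in the wild type mouse of the higher range. Hbb-bt was thus lower in the heterozygous-labelled mouse of 4 of 4 cells, and each of the other 4 genes in 3 of 4. With the cells as blocks, the log2 fold change of Hbb-bt was -0.96 (adjusted p = 0.0577), and the adjusted p of the other 4 genes ran from 0.261 for Alas2 to 0.771 for Hba-a1 (edgeR). None of the 5 was called in that fit, which called 124 of 13879 genes (0.893%), against 37 without blocks.

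In males the mean globin sum was 63.9 CPM in heterozygous-labelled and 89.0 CPM in wild type cortex. In females it was 52.5 CPM in heterozygous-labelled and 65.3 CPM in wild type cortex. The log2 differences were -0.46 in males and -0.39 in females, with 2 mice per genotype in each sex. All 5 genes averaged higher in males. The largest sex differences were 0.99 ± 0.33 for Alas2 and 0.76 ± 0.26 for Hbb-bt (log2, male minus female, SE), with unadjusted p of 0.00745 and 0.00704 and adjusted p of 1.00 for both (edgeR). Of all 13879 genes, 4 (0.0288%) were called by sex, 0 of them among the 5, and 405 had an unadjusted p under 0.05. The interaction of genotype and sex was called for 0 of 13879 genes (0%; edgeR, 366 at an unadjusted p under 0.05), and the 5 genes' interaction terms ran from -0.36 (Hbb-bt) to 0.74 (Alas2). The extreme libraries, a heterozygous-labelled female and a wild type male, lie on opposite sides of both contrasts, so sex and these libraries cannot be told apart with 2 mice per cell.

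Levels between the genes were compared per length of the main GENCODE transcript, in CPM per kilobase. Hbb-bs averaged 37.3 in heterozygous-labelled and 48.5 in wild type cortex, close to Hba-a1 with 35.5 in heterozygous-labelled and 47.0 in wild type cortex. Hba-a2 followed with 14.4 in heterozygous-labelled and 18.0 in wild type cortex. Hbb-bt had 2.81 in heterozygous-labelled and 5.50 in wild type cortex, and Alas2 had 0.803 in heterozygous-labelled and 1.44 in wild type cortex. The order Hbb-bs, Hba-a1, Hba-a2, Hbb-bt, Alas2 held in the means of both genotypes, and the neighbours Hbb-bs and Hba-a1 did not differ beyond their spread (SD 12.3 and 12.2 CPM per kilobase in heterozygous-labelled cortex). The places of Hba-a2 and Hbb-bt also depend on how shared reads were counted. All places depend on the annotated lengths. The Hba-a1 transcript was 699 bases long, 196 of them before the coding sequence, and the Hbb-bs transcript 628 bases, with 53 before it. A shorter Hba-a1 transcript would raise its value, and no other lengths were tried. The order of Hbb-bs and Hba-a1 is thus not settled by these values.

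The chains can be set against each other through their summed reads. Alpha-globin over beta-globin, per length, was 1.05, 1.28, 1.69 and 1.04 in heterozygous-labelled replicates 1 to 4, against 1.19, 1.14, 1.29 and 1.23 in wild type replicates 1 to 4. The ratio lay between 1.04 and 1.29 in 7 of the 8 libraries, and heterozygous-labelled replicate 3 stood apart at 1.69. How near the ratio lies to 1 depends on the annotated transcript lengths, and no other lengths were tried. Beta-globin in that library was 31.4 CPM per kilobase, under the wild type range of 43.5 to 77.1. Alpha-globin was 53.0 CPM per kilobase there, inside the wild type range of 51.8 to 88.0. The alpha share of globin reads in heterozygous-labelled replicate 3 was 63.8% (95% Clopper-Pearson interval 60.5 to 66.9%), against 54.3 to 57.0% in the wild type libraries. Intervals and limits of this kind cover counting error only.

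Hbb-bt took 8.52%, 6.58%, 8.75% and 7.28% of the beta-globin reads in heterozygous-labelled replicates 1 to 4, against 9.92%, 11.8%, 14.3% and 8.62% in wild type replicates 1 to 4. The groups overlapped slightly, since heterozygous-labelled replicate 3 exceeded wild type replicate 4. The mean share was 7.78% ± 1.03 in heterozygous-labelled and 11.1% ± 2.47 in wild type cortex (SD, n = 4 each). The 95% Clopper-Pearson intervals ran from 4.60 to 12.4% over the heterozygous-labelled libraries and from 6.31 to 17.6% over the wild type libraries. The part of read assignment between Hbb-bs and Hbb-bt in this share was not tested.

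Hba-a2 took 22.8%, 23.8%, 22.4% and 32.4% of the alpha-globin reads in heterozygous-labelled replicates 1 to 4, against 23.2%, 21.2%, 24.01% and 25.6% in wild type replicates 1 to 4. The share was near constant apart from heterozygous-labelled replicate 4, the library with the fewest globin reads, where the interval ran from 27.3 to 37.8%. Alas2 reads per 100 globin reads were 2.44, 2.07, 5.44 and 0.963 in heterozygous-labelled replicates 1 to 4, against 3.49, 3.97, 4.13 and 3.44 in wild type replicates 1 to 4. The wild type libraries lay within a narrow band for this ratio, and 3 heterozygous-labelled libraries lay under it and 1 above it. The ratio averaged 2.73 ± 1.91 in heterozygous-labelled and 3.76 ± 0.347 in wild type cortex.

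**Figure D3:**
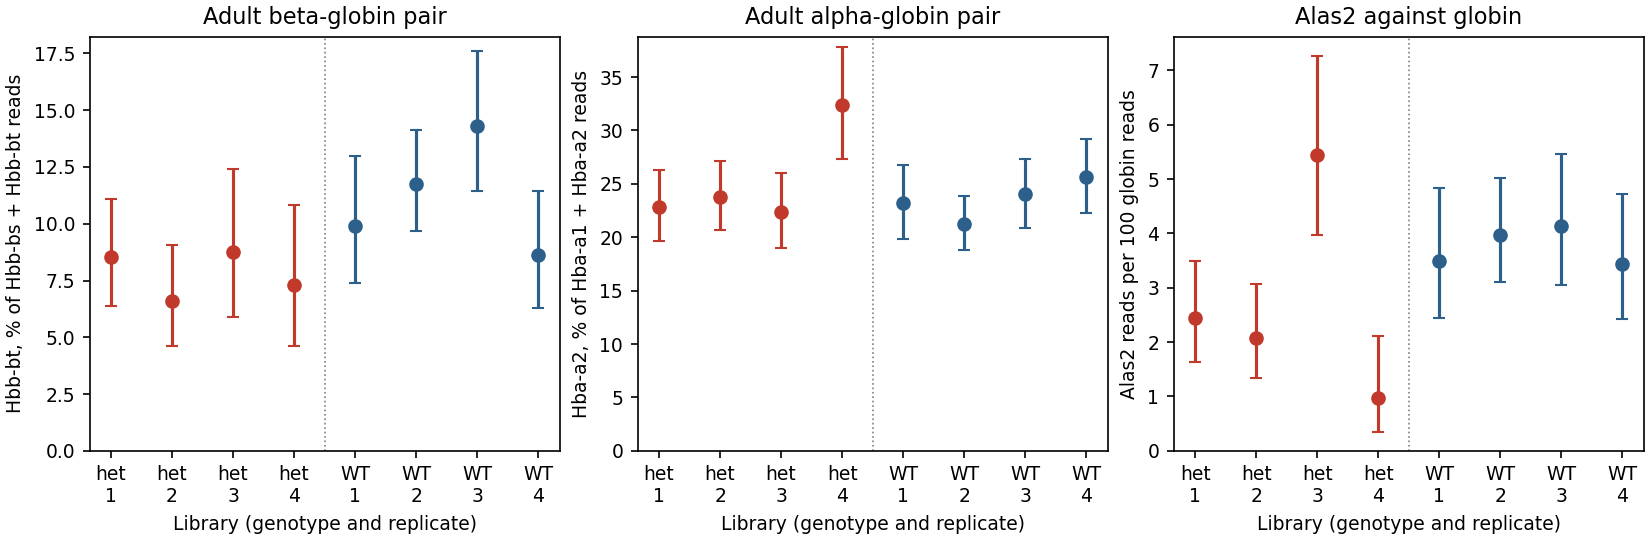
Shares within each library: Hbb-bt in percent of Hbb-bs and Hbb-bt reads, Hba-a2 in percent of Hba-a1 and Hba-a2 reads, and Alas2 reads per 100 globin reads, with heterozygous-labelled libraries left of wild type libraries and 95% Clopper-Pearson intervals as bars. The Hbb-bt share averages 7.78% in heterozygous-labelled and 11.1% in wild type libraries, Hba-a2 reaches 32.4% in heterozygous-labelled replicate 4, and Alas2 ranges from 0.963 to 5.44 among heterozygous-labelled libraries.

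The 5 genes varied more between libraries than most genes. The SD of log2(CPM + 0.5) over the 8 libraries was 0.75 for Alas2, 0.60 for Hbb-bt, 0.52 for Hba-a1, 0.45 for Hbb-bs and 0.30 for Hba-a2. Among the 13879 tested genes these lie at percentiles 99.8, 99.4, 98.7, 96.9 and 87.5, and no allowance was made there for the level of each gene. Alas2 and Hbb-bt are low, at percentiles 10.4 and 12.9 of mean level, where counting error is larger.

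The genes also varied together. Over the 8 libraries Hba-a1 and Hba-a2 had r = 0.945 and rho = 0.833 (2-sided exact permutation p = 0.000595 and 0.0154, or 0.00595 and 0.0917 after Benjamini-Hochberg adjustment over the 10 pairs), and they share reads. Hba-a1 and Hbb-bs, which share none, had r = 0.863 and rho = 0.810 (exact permutation, adjusted p = 0.0185 and 0.0917). All 10 pairs had r between 0.634 and 0.945, and 9 of the 10 an adjusted exact permutation p for r under 0.05, the exception being Hbb-bs with Alas2 (adjusted p = 0.0983). No rho passed after adjustment. The permutations shuffled all 8 libraries freely, so these p make no allowance for genotype, sex or the range of animal numbers. Hbb-bs and Hbb-bt, like the alpha-globin pair, have much transcript sequence in common. With heterozygous-labelled replicate 4 and wild type replicate 2 left out, the 6 globin pairs had r between 0.38 and 0.82, and the 4 pairs with Alas2 between -0.67 and 0.25. Those libraries are the ends of the range of all 5 genes, so leaving them out lowers r by construction, and over the other 6 libraries the r of Alas2 with the globins had both signs.

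**Figure D4:**
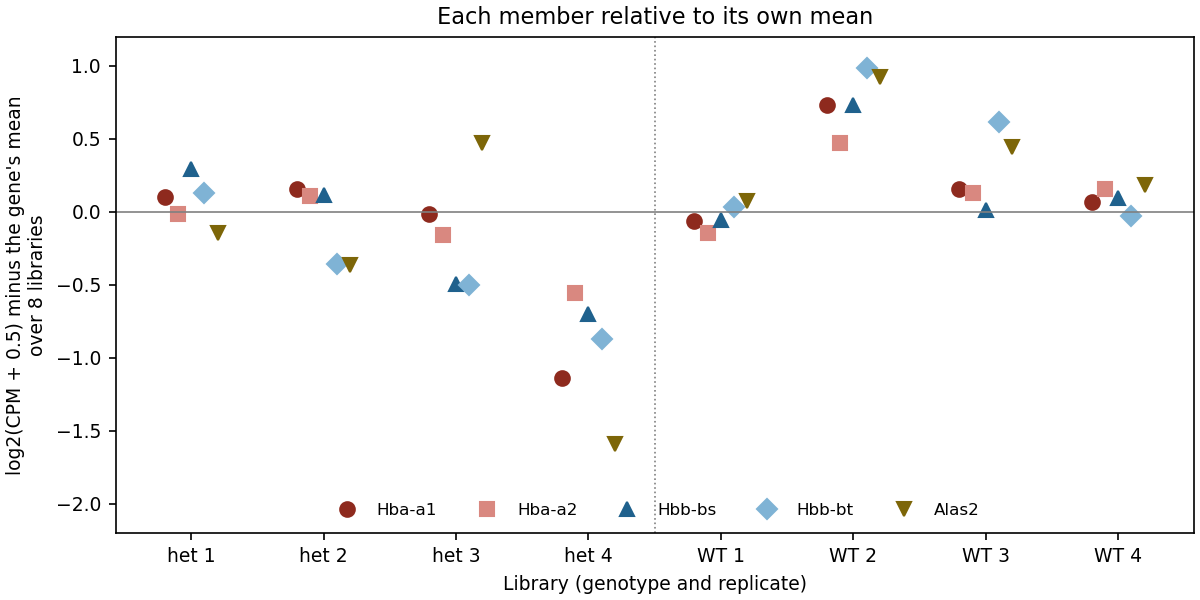
Log2(CPM + 0.5) of each gene minus its own mean over the 8 libraries, with heterozygous-labelled (het) left of wild type (WT) libraries. All 5 genes are below their mean in het 4 and above it in WT 2, and Alas2 departs from the globins in het 3.

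Other products of red cells were nearly absent. Of 22 red cell marker genes besides the 5, 21 had a row and 7 passed the filter on low counts, and the 7, which brain cells also express, had a median log2 fold change of 0.01 with 0 called. The summed level of the list was 544 to 570 CPM in heterozygous-labelled and 549 to 575 CPM in wild type libraries. Its smallest p belonged to Fam46c, with 1.88 CPM in heterozygous-labelled and 1.11 CPM in wild type cortex (log2 fold change 0.75 ± 0.34, adjusted p = 0.620), and to Slc25a37, which imports iron into mitochondria (-0.13 ± 0.07, adjusted p = 0.757; edgeR).

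The 14 markers that did not pass the filter held 7, 10, 10 and 11 reads in all in heterozygous-labelled replicates 1 to 4, against 10, 28, 10 and 10 reads in wild type replicates 1 to 4. Wild type replicate 2, the library with the most globin, had the most of these reads. Isg20, which is also induced by interferon in other cells, gave 18 of its 28 reads. In heterozygous-labelled replicate 4, the library with the least globin, Isg20 gave 1 of the 11 reads and Rhd gave 7. Outside Isg20 the counts of these 2 libraries were thus alike. Slc4a1, the anion exchanger of the red cell membrane, had 10 reads over all 8 libraries, and Kel, Trim10 and Cldn13 had 0.

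The embryonic globin genes Hbb-bh1, Hbb-bh2 and Hba-x had 0 reads in all libraries, Hbb-y had 4, and the theta-globin copies Hbq1a and Hbq1b had 41 and 8 over all 8. Globins of non-red cells were present: Cygb, which encodes cytoglobin, averaged 52.8 CPM in heterozygous-labelled and 46.0 CPM in wild type cortex (log2 fold change 0.20 ± 0.08, adjusted p = 0.570), and Ngb, the neuronal neuroglobin, 3.64 CPM in heterozygous-labelled and 4.69 CPM in wild type cortex (-0.37 ± 0.20, adjusted p = 0.744; edgeR). Of the red cell transcription factors, Gata1 and Gfi1b had 0 reads, Klf1 had 11 and Nfe2 had 3 over all libraries. The 10 regulators that passed the filter, most of them also used outside red cells, had a median log2 fold change of -0.12 and 0 called. Those of smallest p were Bcl11a, a repressor of fetal globin that cortical neurons also express (0.11 ± 0.05, adjusted p = 0.711), and Stat5b (-0.18 ± 0.09, adjusted p = 0.715; edgeR).

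The shared pathways of haem and iron showed no called gene. All 9 other genes of haem synthesis were tested, with a median log2 fold change of -0.0009. The smallest p were those of Uros, with 23.5 CPM in heterozygous-labelled and 21.0 CPM in wild type cortex (0.16 ± 0.09, adjusted p = 0.779), and Fech, which inserts iron into haem (0.09 ± 0.06, adjusted p = 0.848). Of the haem binding and breakdown genes, 8 of 12 were tested, with a median of 0.01. Hmox1, which opens the haem ring, averaged 4.96 ± 0.562 CPM in heterozygous-labelled and 3.62 ± 0.310 CPM in wild type cortex (0.45 ± 0.19, adjusted p = 0.560). Cd163, the macrophage receptor for haemoglobin bound to haptoglobin, averaged 1.504 CPM in heterozygous-labelled and 0.915 CPM in wild type cortex (0.71 ± 0.37, adjusted p = 0.740; edgeR). Of the iron handling genes 14 of 15 were tested, with a median of 0.04. Trf, which encodes transferrin, had 0.26 ± 0.10 (adjusted p = 0.470) and Fth1, the ferritin heavy chain, 0.12 ± 0.05 (adjusted p = 0.669; edgeR).

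Markers of other blood cells were also summed, and these sums rested mostly on few genes. Of 14 neutrophil and monocyte markers 1 passed the filter, Csf3r, and Elane, Retnlg, Ly6g and Cxcr2 had 0 reads. The list summed to 6.46 to 8.53 CPM in heterozygous-labelled and 6.79 to 8.09 CPM in wild type libraries. Lymphocyte markers, with 2 of 14 tested and Cd3g, Cd8a and Ms4a1 at 0 reads, summed to 1.46 to 2.73 CPM in heterozygous-labelled and 1.98 to 4.12 CPM in wild type libraries. Platelet markers, with 3 of 11 tested and Gp6 and Clec1b at 0, summed to 17.0 to 24.2 CPM in heterozygous-labelled and 16.8 to 23.7 CPM in wild type libraries. In heterozygous-labelled replicate 4 and wild type replicate 2, the globin extremes, the 3 sums lay at 8.06 and 7.14 CPM for neutrophils and monocytes, 1.46 and 2.07 for lymphocytes, and 18.8 and 20.3 for platelets. Wild type replicate 2 was the highest of the 8 for none of the 3 sums. Csf3r alone averaged 7.26 of 7.88 CPM of its list's sum in heterozygous-labelled and 6.44 of 7.24 CPM in wild type cortex. Gp1bb averaged 13.8 of 19.8 CPM of the platelet sum in heterozygous-labelled and 12.4 of 20.0 CPM in wild type cortex. Whether these transcripts came from blood cells was not tested, so the sums are no clear reading of such cells.

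The next question was which genes follow globin between libraries beyond genotype and sex. The index was log2 of the summed globin CPM plus 0.5, and a slope is the log2 change of a gene per doubling of that sum. Without the 5 genes, 33 of 13874 genes (0.238%) were called, 8 with a positive and 25 with a negative slope, and 0 of them were called by genotype. The 8 positive ones were Slco1c1, a transporter of thyroid hormone in brain vessels and astrocytes (0.61 ± 0.12, adjusted p = 0.0167), Chrdl1, Rbm28, Irak2, Sat1, Ermard, the opioid precursor gene Penk, and Vwf, the von Willebrand factor of endothelial cells (0.98 ± 0.21, adjusted p = 0.0403; edgeR, SE). The negative ones of smallest p were Unkl (-1.43 ± 0.20, adjusted p = 0.00175), RP24-227L14.1, Prodh, Itih3, Lgi3, Zfp40 and the metallothionein genes Mt2 (-0.79 ± 0.13, adjusted p = 0.0135) and Mt1 (-0.49 ± 0.09).

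These slopes moved with other features of the libraries. Unkl had 13.3, 11.6, 27.7 and 26.6 CPM in heterozygous-labelled replicates 1 to 4, against 18.5, 11.7, 23.5 and 20.2 CPM in wild type replicates 1 to 4. All mice of the higher animal numbers (replicates 3 and 4 of each genotype) lay above all mice of the lower numbers. Of the 33 genes 14 had no overlap between the ranges, where 5.46% of the tested genes had none, and 0 of the 5 haemoglobin and Alas2 rows had none. With the range of animal numbers as a further term, 7 genes were called, and 3 of these were among the 33. Without heterozygous-labelled replicate 4 there were 3 calls, all of them among the 33, without wild type replicate 2 there were 14, of which 9 were, and without both there were 2, Ndn and Tmem167. With Alas2 alone as the index 0 genes were called.

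Markers of endothelial cells, which line the vessels that hold blood, had slopes on the globin sum that lay nearly all above 0. Of 17 endothelial markers 16 had a slope above 0, with a median of 0.42 against -0.0019 over all tested genes, and 1, Vwf, was called. Pericyte and smooth muscle markers had 8 of 10 above 0 and a median of 0.16, and leptomeningeal markers 3 of 10 and -0.12. Slopes mostly above 0 were not particular to vessel cells, since genes of the hypoxia response had 11 of 13 above 0, with a median of 0.04. Cortical neuron markers had 6 of 10 and 0.02, and choroid plexus markers 2 of 4 and 0.16. The endothelial markers summed to 567, 549, 414 and 433 CPM in heterozygous-labelled replicates 1 to 4, against 529, 550, 489 and 408 CPM in wild type replicates 1 to 4. This sum too was lower in every mouse of the higher animal numbers than in any mouse of the lower ones. With that range as a further term, 6 of the 17 slopes were above 0 and their median was -0.07, while the leptomeningeal median was 0.44. The hypoxia response genes then had 3 of 13 above 0. The endothelial median was 0.47 without heterozygous-labelled replicate 4, 0.44 without wild type replicate 2 and 0.73 without both. By genotype the endothelial list had a median log2 fold change of 0.02 and 0 called genes. Its mean sum was 491 CPM in heterozygous-labelled and 494 CPM in wild type cortex. The mean globin sum was 58.2 CPM in heterozygous-labelled and 77.1 CPM in wild type cortex, a ratio of 0.754, also with 0 called genes.

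**Figure D5:**
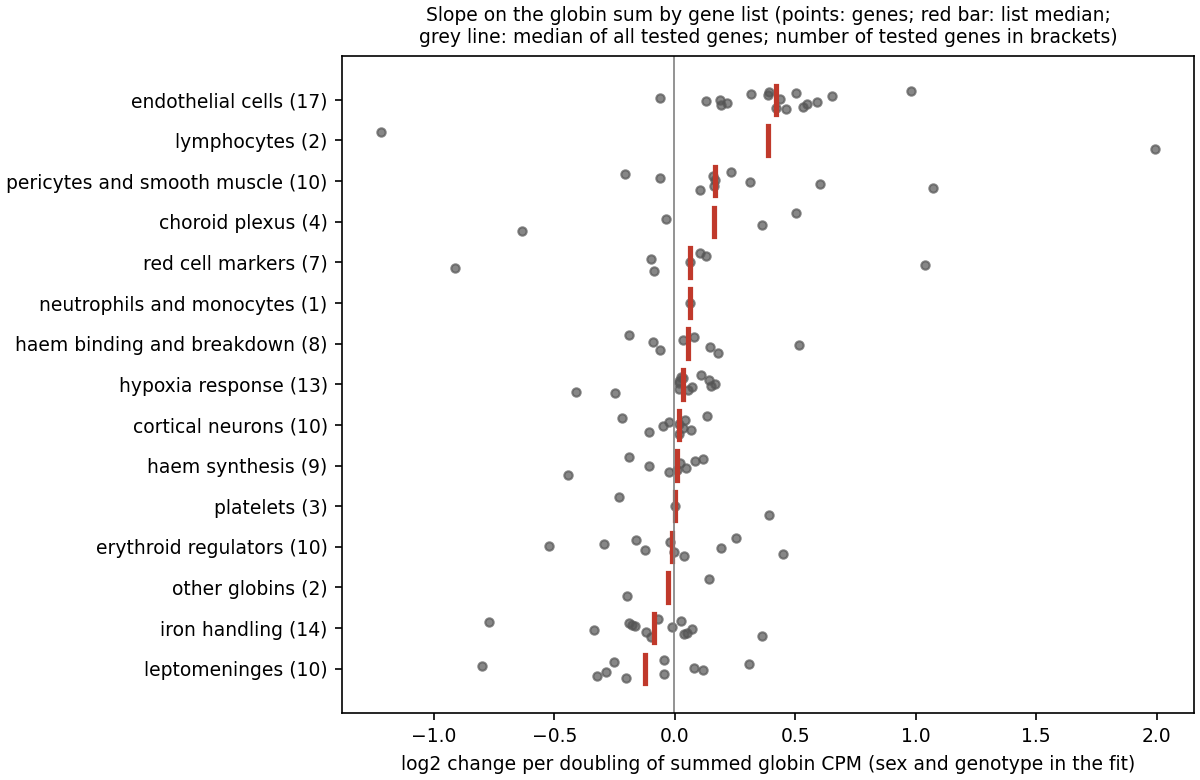
Slope of each tested gene on the globin sum (log2 change per doubling, horizontal axis) by gene list, with list medians as red bars and the median of all tested genes as a grey line. Endothelial markers lie at a median of 0.42 with 16 of 17 above 0, before the range of animal numbers is taken into account.

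Entering the globin index as a term in the genotype fit left Hbb-bt at a log2 fold change of -0.61 ± 0.29 (adjusted p = 0.564) and Alas2 at -0.56 ± 0.39 (adjusted p = 0.766; edgeR, SE). The other 3 genes lay between -0.04 and 0.06, but the index is made from the globin rows, so this describes their shares and is no separate result for the globins. Over all genes, 48 were called by genotype with the index in the fit and 37 without it, and 21 were called both times.

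The genes whose pattern over the 8 libraries was most like the globin index, among 13330 other genes with a mean of at least 1 CPM, were Cdh11, which encodes a cadherin (r = 0.956), Ccdc88a (r = 0.949), Egfem1 (r = 0.946), Cinp (r = 0.942), Fam81a, Pkd2, Smc6, Rpl32, Trim8 and Thap4 (r = 0.926). The lowest correlations were those of RP24-458M20.2 (r = -0.978), Dsn1, Anapc11, Themis2 and Ssc5d (r = -0.911). Cdh11 spanned 70.0 CPM in heterozygous-labelled replicate 4 to 92.7 CPM in wild type replicate 2, the same libraries that bound the globins. With those 2 libraries left out, r was 0.773 for Cdh11 and 0.432 for Cinp. These are the top of a ranking over 8 libraries, given as a description, and none of the 15 had a called slope.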

How the data were processed

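Raw read counts per gene were deposited by the authors as a table of 22000 gene symbols and 8 libraries. Per the submitters' processing notes, STAR 2.5.2b and HTSeq were used with genome build mm10. The annotation, strand setting and treatment of reads that match several genes are details not given in the sources used here. Per the labels' protocols, total RNA was enriched with poly-A selection beads.

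All later steps started from those deposited counts. Genes were kept by edgeR's filterByExpr (minimum count 10), which left 13879, and scaled by TMM. The test was the edgeR 4.0.16 quasi-likelihood F-test (R 4.3.3, robust) with sex and genotype as terms, calling a Benjamini-Hochberg adjusted p under 0.05 over all tested genes. An interaction term, the globin index and the range of animal numbers were added in further fits. DESeq2 1.42.0 and limma 3.58.1 were alternatives, and the script was checked on simulated counts.

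The 5 genes, the gene lists and the tests were chosen with earlier results of these data known. The named genes are those 5, Mef2c, up to 2 genes of smallest p per list, the 10 highest and 5 lowest correlations with the index, and up to 8 called slopes per direction. Markers at or near 0 reads and the genes called without both extreme libraries were named after their values were seen. Gene positions and lengths come from GENCODE, and sequences before gene starts from RefSeq. Each library is a separate mouse per the labels.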

Additional observations from a re-analysis of the deposited data

Results flagged for a closer look

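Of 14 sets of 4 libraries tested for a library far from the others, covering the 5 genes, the globin sum and Mef2c in each genotype, 1 was singled out. Hbb-bs in wild type replicate 2 was 43.2 CPM, and the other 3 wild type libraries lay between 24.8 and 27.6 CPM. Chance singles out about 1 in 20 such sets. The same library was also the highest of the 8 for Hba-a1, Hba-a2, Hbb-bt and Alas2, without reaching that limit in those genes.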

How the results depend on the processing

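Over 115 alternative values of the 5 genes' genotype difference, 113 were below 0, and 0 of the 95 with a test were called (adjusted p between 0.0577 and 1.00). The exceptions were Hba-a1 and Hbb-bs with both extreme libraries left out, an alternative added after seeing the data, at 0.0187 and 0.0183. The cause was not tested. The globin index difference lay between -0.553 and -0.202 with 1 library left out. The 37 genotype calls became 82 without a filter, 80 with DESeq2, 72 with the range of animal numbers as a term, 14 without both extreme libraries, and 19 to 80 with 1 library left out. The 33 slope calls became 52 with DESeq2, 53 with Hbb-bs alone as the index, 7 with the range as a term, 0 with Alas2 as the index, 2 without both extreme libraries (added), and 3 to 55 with 1 library left out. Sex calls ran from 2 to 6 around 4 and interaction calls from 0 to 2 around 0 with 1 library left out. The median slope, in settings added after seeing the data, turned to -0.0659 for endothelial and -0.155 for pericyte markers with the range as a term. Without both extreme libraries the medians were 0.726 and 0.396. With 22 to 100 Hbb-bt reads and 6 to 74 Alas2 reads per library, counting error limits these genes most. The replicate numbers only name the samples. With the 4 cells of sex and animal range as blocks, an alternative added after seeing the data, genotype calls numbered 124.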
